A study of Rattus norvegicus with 6 samples.

Results

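The 10 genes described here encode the oxygen-sensing hydroxylases, the HIF subunits and 2 proteins that act on them: Egln1, Egln2, Egln3, Hif1an, Vhl, Hif1a, Epas1, Hif3a, Arnt and Cited2. They were found on the array by gene name among the probes that are not controls, and each was measured by 1 probe, 10 of 30367 probes in all. The arrays hold RNA of heart primordia from rat embryos (strain Wister, as the labels spell it) on embryonic day 10, from 3 biological replicates of a pre-heartbeat group and 3 of a post-heartbeat group, with 1 array for each. The labels name no treatment or genetic change in either group. The groups were set apart by the shape of the primordium, flat in the centre before the heartbeat and raised after it, together with the number of somites. Neither the labels nor the methods say how many primordia went into 1 array sample. RNA of whole primordia was used, so that fewer cells of a type and less RNA per cell cannot be told apart in any value below.

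As background, HIF is a transcription factor made of an oxygen-regulated alpha subunit and the constant subunit encoded by Arnt (HIF-1β). Where oxygen is present, the prolyl hydroxylases PHD2 (Egln1), PHD1 (Egln2) and PHD3 (Egln3) modify the alpha subunit, and pVHL (Vhl) then binds it and brings it to a ubiquitin ligase for degradation. FIH (Hif1an) hydroxylates an asparagine of the alpha subunit, which keeps it from binding the coactivators p300 and CBP, and CITED2 competes with HIF for the same coactivators. HIF-1α (Hif1a) and HIF-2α (Epas1) activate genes of glycolysis, blood vessel growth and red cell formation, whereas some products of Hif3a restrain them. Egln1 and Egln3 are themselves known targets of HIF, and HIF signaling is needed for the development of the heart and vessels in the embryo.

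The values of the hydroxylase and HIF-alpha isoforms below rest on single probes, and the sequences of the probes that the comparisons between isoforms turn on are shown in lower case, 5′ to 3′, as the array gives them. The probe of Egln1 lies at chr19:55117747-55117806 on the minus strand of the rn4 genome, that of Egln2 at chr1:82234371-82234430 on the minus strand, that of Hif1a at chr6:96462636-96462695 on the plus strand and that of Epas1 at chr6:10295169-10295420 on the plus strand.
Egln1: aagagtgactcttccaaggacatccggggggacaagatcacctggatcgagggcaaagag
Egln2: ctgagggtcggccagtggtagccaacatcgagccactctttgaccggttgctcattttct
Hif1a: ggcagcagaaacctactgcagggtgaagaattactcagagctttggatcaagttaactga
Epas1: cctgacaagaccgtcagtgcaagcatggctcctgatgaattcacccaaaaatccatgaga
The 60 bases of the Epas1 probe span 252 bases of the genome, so that it matches sequence on both sides of a gap. The Egln3 probe lies on the minus strand at chr6:74451958-74452017, and only its first 30 bases are shown.
Egln3: gtcattgctaaattgatgctctcttgtcga
The longest run of bases shared by 2 isoform probes was 5 to 7 bases over the 6 pairs of isoforms, and 10 to 22 of 60 positions were identical. The GC content of the member probes ran from 35.0% (Cited2) to 55.0% (Egln1, Egln2 and Hif3a). Exons and UTRs were not assigned to the probes, as an rn4 annotation was not used here.

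The question asked of these genes is whether their RNA changed when the heartbeat began. Values are log2 of the processed signal less the 75th percentile of the array, so that 0 is the level of that percentile. Brightness depends on the probe as well as on the RNA. Therefore, levels of different genes were not ranked, and the isoforms were compared by how the difference between their probes shifted from one group to the other. A probe was tested if every array of a group showed it well above background, which was so for 9 of the 10 members and not for Arnt. In limma over 19297 tested probes, 0 of the 9 passed an adjusted p of 0.05, where 0.14% of all tested probes did (27 probes, 23 higher and 4 lower). At an unadjusted limma p under 0.05 the count was 1, Egln3, against 7.01% of all tested probes. On average 7 of the 9 were higher in the post-heartbeat group and 2 were lower. The 7 include Vhl, at only 0.0051, and Hif3a, which was tested only through the post-heartbeat group. The median log2 difference of the 9 was 0.20, against -0.033 over all tested probes, of which 44.7% were higher.

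**Figure D1:**
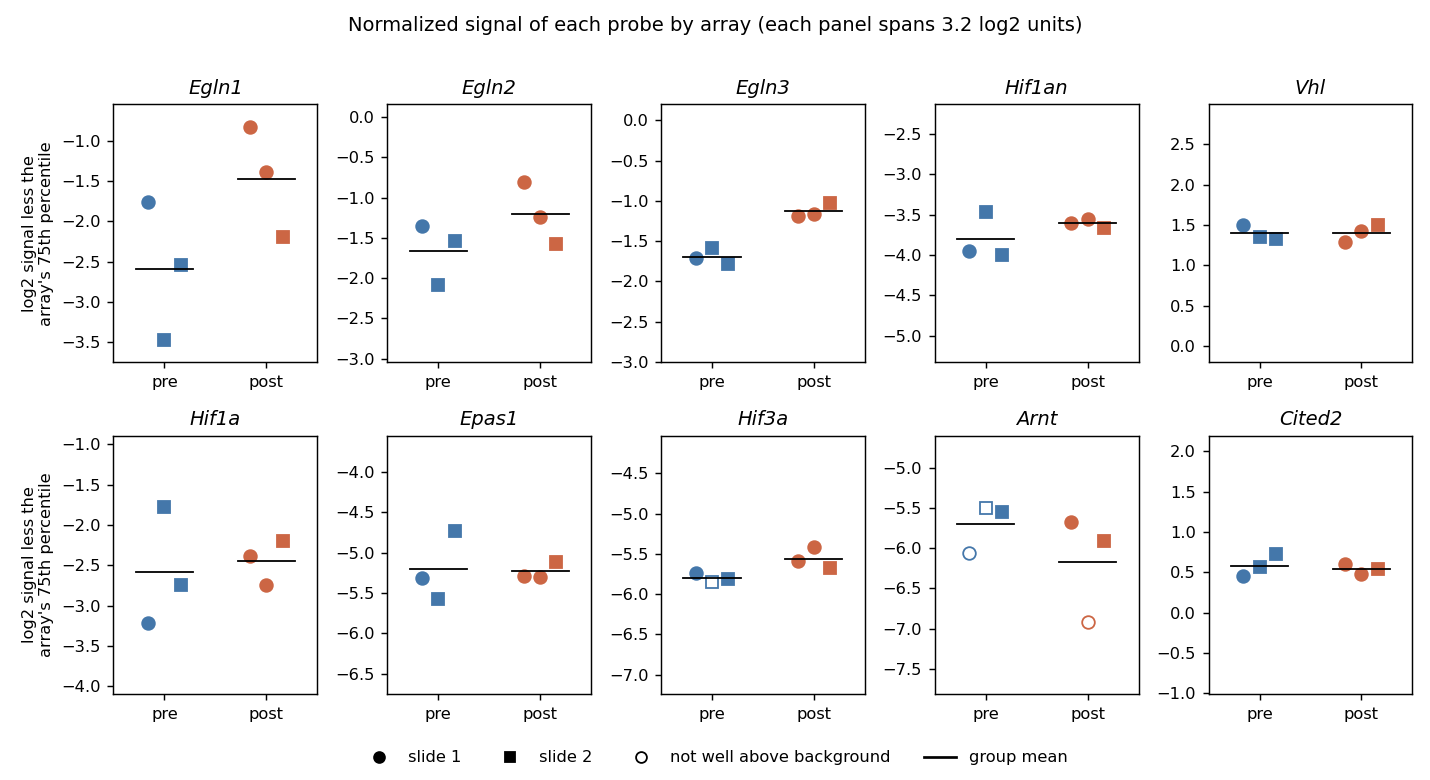
Normalized signal of the 10 members, in log2 units above or below the array's 75th percentile, for each of the 3 pre-heartbeat and 3 post-heartbeat arrays. Circles are arrays of slide 1, squares those of slide 2, open symbols are arrays on which the probe was not well above background, lines are group means, and all panels span the same number of log2 units. For Egln3, the post-heartbeat arrays sit between -1.18 and -1.02, above the pre-heartbeat arrays at -1.79 to -1.59, whereas the arrays of Egln1 spread over 2.64 log2 units.

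The arrays were on 2 slides. On slide 1 were 1 pre-heartbeat array (replicate 1) and 2 post-heartbeat arrays (replicates 1 and 2), and the remaining arrays were on slide 2. The first principal component took 60.3% of the variance, and 16.3% of tested probes differed between slides at a limma adjusted p under 0.05. Since both slides held both groups, the differences were fitted a second time with a term for the slide, here called the slide block. At an unadjusted p under 0.05, 2 of the 9 members passed in that fit, Egln1 and Egln3, beside 9.65% of all tested probes, and 0 passed the adjusted threshold.

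Among the prolyl hydroxylases, the averages of all 3 genes were higher in the post-heartbeat group, and Egln3 alone had groups that did not overlap. Egln3, the hydroxylase best known for its induction by hypoxia, had normalized log2 signals of -1.71, -1.59 and -1.79 in pre-heartbeat replicates 1, 2 and 3. In the post-heartbeat replicates they were -1.18, -1.16 and -1.02. Every post-heartbeat array was above every pre-heartbeat array, on both slides. Groups that did not overlap, with the post-heartbeat group higher, were found for 5.38% of all tested probes. The difference in Egln3 was 0.58 (SE 0.14, n = 3 arrays per group), a 1.49-fold higher level with a 95% interval of 1.19 to 1.86. It did not pass the limma threshold over all probes (unadjusted p = 0.0038, adjusted p = 0.237). The exact permutation test gave p = 0.1, the smallest value that 3 arrays against 3 allow. With the slide block the difference was 0.60 (SE 0.14, limma adjusted p = 0.0901), and with each array left out in turn it ran from 0.53 to 0.63. In the methods' t-test Egln3 and Hif3a had an unadjusted p under 0.05, 2 of 9 members beside 6.84% of all tested probes. Hif3a was tested only through the post-heartbeat group, in which it was higher, so its place in this count is not read as a change. The study's selection also required a change of 1.5 fold, which Egln3 missed narrowly, so that 0 members were selected, beside 3.04% of all tested probes (1.89% higher).

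Egln1, which encodes the main oxygen sensor among the hydroxylases (PHD2), had the largest average difference of the members and also the widest spread. Its normalized log2 signals were -1.76, -3.47 and -2.54 in pre-heartbeat replicates 1 to 3 and -0.83, -1.39 and -2.19 in post-heartbeat replicates 1 to 3. The groups overlapped, as pre-heartbeat replicate 1 was above post-heartbeat replicate 3. The difference was 1.12 (SE 0.49, n = 3 per group), or 2.17-fold with a 95% interval of 0.967 to 4.88 (limma adjusted p = 0.751), and 1.30% of tested probes had a larger one in either direction. Within each slide, the post-heartbeat arrays were above the pre-heartbeat arrays, by 0.65 on slide 1 and by 0.82 on slide 2, as was so for 12.2% of all tested probes. With the slide block the difference was 0.73 (SE 0.27, limma adjusted p = 0.383). Egln1 was the only member that passed the limma threshold between slides, with a slide 2 minus slide 1 difference of -1.17 (SE 0.27, adjusted p = 0.0251). Leaving out 1 array moved the difference between groups to between 0.68 and 1.54. The pair of spots of the probe differed by a median of 0.038 and at most 0.30 log2 units within an array, less than the 2.64 over which the arrays spread.

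The arrays also ordered Egln1 like many other genes. Of 12675 genes compared over the 6 arrays, 981 had a Pearson r above 0.9 with Egln1. The 5 genes nearest to it were Tmco4, Itgb5, Dusp8, Metrn and Tp53i13, with r from 0.995 to 0.996. All 5 were higher in the post-heartbeat group on average, by 0.25 to 0.81, and lower on slide 2 than on slide 1, by a log2 difference of -0.27 for Dusp8 to -0.87 for Metrn. The 5 genes were picked by their r with Egln1 on these same arrays, so the directions they share with it follow from that choice. They are not a further result. These points share the 6 arrays and their slides, and r is given as a description.

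Egln2, which encodes PHD1, had normalized log2 signals of -1.35, -2.09 and -1.54 before and -0.80, -1.24 and -1.58 after heartbeat initiation. Post-heartbeat replicate 3 lay below 2 of the pre-heartbeat arrays. The difference was 0.45 (SE 0.27, n = 3 per group, limma adjusted p = 0.866), with a 95% interval of -0.18 to 1.08 that includes 0, and it was 0.28 with the slide block. It was 0.24 without pre-heartbeat replicate 2 and 0.25 without post-heartbeat replicate 1.

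Hif1an, the asparaginyl hydroxylase, was measured by 1 spot that was well above background on all 6 arrays, at 3.31 to 4.15 times the local background. Its normalized log2 signals were -3.95, -3.46 and -4.00 in the pre-heartbeat and -3.60, -3.55 and -3.66 in the post-heartbeat replicates. The post-heartbeat arrays lay between the lowest and the highest pre-heartbeat array. The difference was 0.20 (SE 0.18, limma adjusted p = 0.866). It was 0.064 with normexp background correction, and it ran from 0.099 without pre-heartbeat replicate 3 to 0.37 without pre-heartbeat replicate 2.

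**Figure D2:**
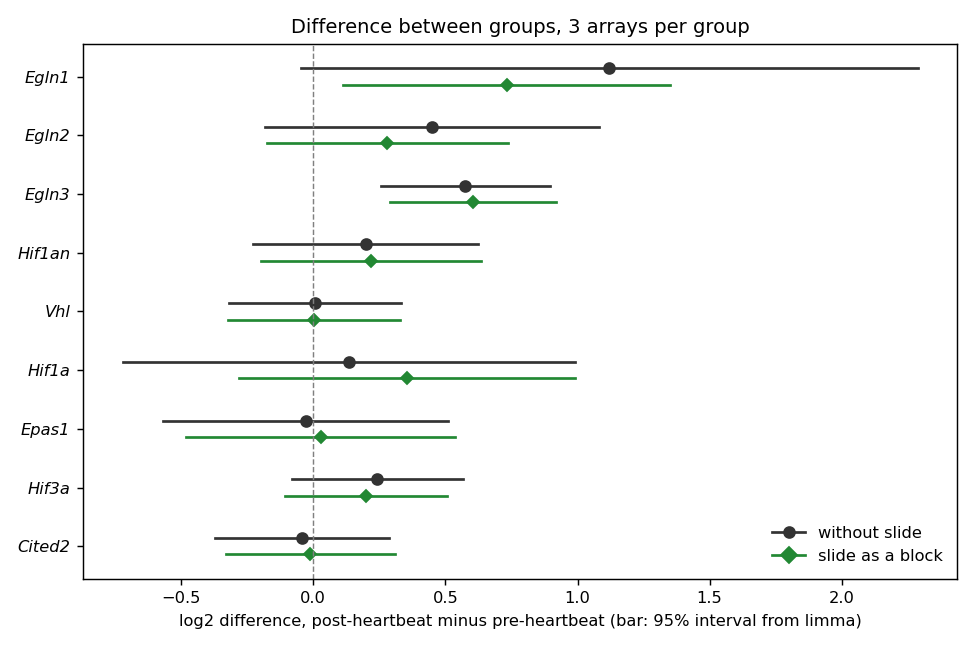
Log2 difference between the post-heartbeat and pre-heartbeat groups for the 9 tested members, with 95% intervals from limma and 3 arrays per group, without the slide (black circles) and with the slide block (green diamonds). The interval of Egln3 lies above 0 in both fits, that of Egln1 only with the slide block (0.11 to 1.35), and those of the other members include 0 in both. These intervals are not adjusted for the number of probes.

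Vhl, the substrate receptor of the ligase, had a bright probe, at 69.6 to 110 times the local background, whose signal varied little. Its normalized log2 signals were 1.505, 1.35 and 1.33 before and 1.28, 1.42 and 1.5 after heartbeat initiation, a range of 0.22 over all 6 arrays. The 95% interval of the difference, from -0.32 to 0.33, bounds a fold change between 0.801 and 1.26. On slide 1 the post-heartbeat arrays were lower by 0.15, and on slide 2 the post-heartbeat array was higher by 0.16. Likewise, the other subunits of the ligase showed no change that passed the test (0 of 4 tested genes). The log2 difference was 0.039 for Tceb1 and -0.16 for Tceb2, which encode elongins C and B, -0.12 for the scaffold Cul2 and 0.021 for the RING protein Rbx1. The 4 limma adjusted p values ran from 0.866 for Tceb2 to 0.971 for Rbx1.

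Of the HIF subunits, 0 of the 3 tested alpha genes passed the limma threshold, and only Hif3a had groups that did not overlap. Hif1a, the alpha subunit of HIF-1, had normalized log2 signals of -3.21, -1.78 and -2.74 in the pre-heartbeat replicates, which enclosed the post-heartbeat signals of -2.38, -2.75 and -2.20. The pre-heartbeat arrays spread over 1.43 log2 units and held both the lowest and the highest of the 6 values. On slide 1 the post-heartbeat arrays were higher by 0.65, and on slide 2, where the groups overlapped, the difference was 0.065. The difference over all arrays was 0.14 (SE 0.36, limma adjusted p = 0.920), and its 95% interval spans fold changes from 0.607 to 1.99. Without pre-heartbeat replicate 1 it was -0.18, and without pre-heartbeat replicate 2 it was 0.53.

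Epas1 encodes HIF-2α, which is known above all from endothelial cells. Its probe was dim, at 1.77 to 2.53 times the local background, and well above background on all 6 arrays, although on pre-heartbeat replicate 2 by only 1 of 2 spots. The normalized log2 signals were -5.31, -5.57 and -4.73 before and -5.29, -5.30 and -5.11 after heartbeat initiation, so that the pre-heartbeat arrays were again on both sides. The difference was -0.028 (SE 0.23, limma adjusted p = 0.975). Of the endothelial and endocardial markers, 1 of 10 tested genes was higher on average, and their median log2 difference was -0.16. Their summed linear level, in units of the 75th percentile, was 20.0 to 20.2 on the pre-heartbeat and 14.5 to 16.1 on the post-heartbeat arrays. The brightest of them were Kdr at -0.55, Egfl7 at -0.12 and Pecam1 at -0.081, with limma adjusted p of 0.284 or more. Kdr weighs most in the summed level, with a mean log2 signal of 3.76 before and 3.22 after heartbeat initiation. The part of these markers in the values of Epas1 was not tested.

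Hif3a also lay close to background, at 1.68 to 1.96 times the local background, and was not well above it on 1 of the 6 arrays, pre-heartbeat replicate 2. Its normalized log2 signals were -5.74, -5.85 and -5.81 before and -5.59, -5.42 and -5.67 after heartbeat initiation. All post-heartbeat arrays were above all pre-heartbeat arrays, on both slides. The difference was 0.24 (SE 0.14, limma adjusted p = 0.866, exact permutation p = 0.1), beside differences between the 2 spots of the probe on an array with a median of 0.16 and a maximum of 0.94. With normexp background correction the difference was 0.0062. Hif3a was tested only through the post-heartbeat group, and its value on pre-heartbeat replicate 2 is one of background, so it is not counted as a member that changed. Of the 8 tested members with a signal well above background on each of the 6 arrays, 1 had groups that did not overlap, Egln3, beside 11.5% of all tested probes without overlap in either direction.

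Arnt, the shared partner of the alpha subunits, was measured by 1 spot that was well above background on 3 of 6 arrays, namely 1 pre-heartbeat array (replicate 3) and 2 post-heartbeat arrays (replicates 1 and 3). The normalized log2 signals were -6.06, -5.50 and -5.55 in the pre-heartbeat and -5.68, -6.92 and -5.91 in the post-heartbeat replicates. Feature Extraction gave these signals an error of up to 43.7%. The groups overlapped (exact permutation p = 0.4), and no change of Arnt could be detected at this signal. The related partner genes Arnt2 and Arntl were measurable, with log2 differences of -0.085 and -0.29 (limma adjusted p = 0.931 and 0.855). The groups of Arnt2 overlapped. Those of Arntl did not, with post-heartbeat arrays at -3.14 to -3.06 and pre-heartbeat arrays at -2.96 to -2.59. Groups without overlap in either direction were found for 11.5% of all tested probes.

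Cited2, the competitor for p300 and CBP, was bright, at 40.1 to 60.9 times the local background. Its normalized log2 signals of 0.46, 0.57 and 0.73 before and 0.61, 0.48 and 0.54 after heartbeat initiation overlapped. The difference was -0.042 (SE 0.14, limma adjusted p = 0.939), and its 95% interval bounds a fold change between 0.773 and 1.22. The related gene Cited1 was lower on average by a log2 difference of -0.64 (SE 0.23, limma adjusted p = 0.591).

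How the isoforms changed relative to each other was examined in 6 pairs by the difference between their probes within an array. In this difference the normalization of the array cancels. In its shift between groups the brightness of each probe cancels too, so far as signal is in proportion to RNA. That need not hold for the dim probes of Epas1 and Hif3a, and every pair of alpha subunits includes Epas1 or Hif3a. The groups overlapped in all 6 pairs, the exact permutation p was 0.2 or more, and after adjustment over the 6 pairs it was 1.0 for each. The smallest p possible here is 0.1.

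For Egln1 minus Egln2, the within-array log2 difference was -0.41, -1.38 and -1.0 in the pre-heartbeat and -0.023, -0.15 and -0.61 in the post-heartbeat replicates. Pre-heartbeat replicate 1 was above post-heartbeat replicate 3, and within each slide the post-heartbeat arrays were higher, by 0.32 on slide 1 and 0.58 on slide 2. The shift toward Egln1 was 0.67 on the log2 scale (exact permutation p = 0.2), and 0.45 with the slide block. For Egln1 minus Egln3 the shift was 0.54 (exact permutation p = 0.6), and with the slide block it was 0.13. Leaving out pre-heartbeat replicate 2 took it to 0.050 and leaving out pre-heartbeat replicate 1 to 0.97. The 6 arrays of this pair spread from -1.88 on pre-heartbeat replicate 2 to 0.36 on post-heartbeat replicate 1. For Egln2 minus Egln3 the shift was -0.12 (exact permutation p = 0.8), with values of 0.36, -0.50 and 0.25 before and 0.38, -0.083 and -0.56 after heartbeat initiation.

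For the alpha subunits, Hif1a minus Epas1 shifted by 0.16 (exact permutation p = 0.9). Its values were 2.10, 3.79 and 1.99 in the pre-heartbeat and 2.91, 2.55 and 2.91 in the post-heartbeat replicates, so that the highest and the lowest were both pre-heartbeat arrays. Hif1a minus Hif3a shifted by -0.11 (exact permutation p = 1.0) without the slide and by 0.16 with the slide block. Epas1 minus Hif3a shifted by -0.27 (exact permutation p = 0.5), from 0.43, 0.28 and 1.08 to 0.30, 0.12 and 0.56. Without pre-heartbeat replicate 3 this last shift was -0.031, and it was -0.063 with normexp and -0.17 with the slide block. For no pair was the shift larger than the range of its pre-heartbeat arrays.

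**Figure D3:**
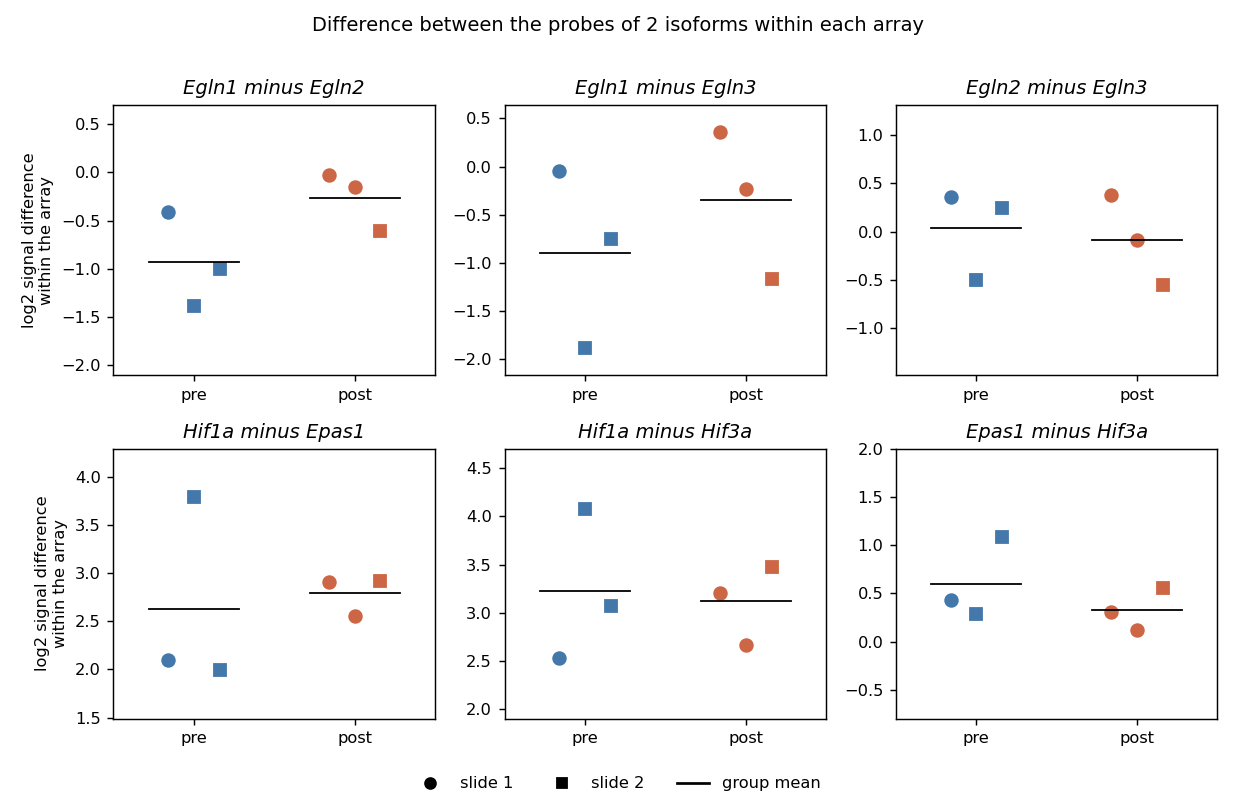
Log2 signal difference between the probes of 2 isoforms within each array, for the 3 pairs of prolyl hydroxylases (top) and the 3 pairs of HIF-alpha subunits (bottom), by group, with circles for slide 1, squares for slide 2 and lines for group means. The height of a panel on its axis depends on the probes, and only the shift between groups is compared. The groups overlap in all 6 panels, with the largest shift, 0.67, for Egln1 minus Egln2.

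Other genes of the pathway were followed as lists. Of the 7 tested HIF partners and coactivators, 0 passed the limma threshold and 1 was higher on average, Ep300 (p300) at 0.036. Of 12 tested regulators of HIF-alpha protein other than the members, 0 passed the limma threshold and 5 were higher on average, with a median of -0.036. The largest differences among these were in P4htm and Siah2. P4htm encodes a transmembrane prolyl hydroxylase that can also act on HIF-alpha, and its difference was 1.03 (SE 0.15), with post-heartbeat arrays above all pre-heartbeat arrays (limma adjusted p = 0.0788). In the fit with the slide block, P4htm passed the threshold at 1.07 (limma adjusted p = 0.0191), which 1.62% of all tested probes did in that fit. Siah2 encodes a ubiquitin ligase that targets prolyl hydroxylases, and its probe was well above background on 1 of 3 pre-heartbeat and all 3 post-heartbeat arrays. It was thus tested only through the group in which it was higher, and its difference of 1.19 (SE 0.43, limma adjusted p = 0.578), or 0.81 with the slide block (adjusted p = 0.0440), was taken largely against background signals and is not read as a change. Usp33, a deubiquitinase, had a difference of -0.31 and the chaperone Hsp90ab1 one of -0.26. On a separate list of other 2-oxoglutarate dioxygenases, 0 of 4 tested genes passed the limma threshold. Their differences ran from -0.24 for Mina to 0.19 for Jmjd6, with Ogfod1 at -0.14 and Plod1 at 0.11. P4htm and some of the HIF target genes below belong to this enzyme class too and were counted on their own lists.

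Of 36 HIF target genes, other than Egln1 and Egln3, 35 were on the array and 30 were tested. In limma, 0 of the 30 passed the adjusted threshold, beside 0.189% of all 12684 tested genes, and 7 had an unadjusted p under 0.05, beside 8.05% of all tested genes. Groups did not overlap for 9 of the 30, all with the post-heartbeat group higher, beside 6.31% of all tested genes with the post-heartbeat group higher. On average 19 of 30 were higher, with a median of 0.12, beside 46.4% and a median of -0.022 over all tested genes. The largest differences were in Stc2, which encodes the secreted glycoprotein stanniocalcin 2, and Pfkfb4, a regulator of glycolysis. The difference of Stc2 was 1.14 (SE 0.19, limma adjusted p = 0.107) and that of Pfkfb4 was 0.72 (SE 0.13, adjusted p = 0.120). Both probes were dim, although well above background on every array. The pre-heartbeat log2 signals were -5.77 to -5.49 for Stc2, near the level of Hif3a, and -4.39 to -4.26 for Pfkfb4. With the slide block, Stc2 and Pfkfb4 passed the threshold, at 1.25 (limma adjusted p = 0.0113) and 0.71 (adjusted p = 0.0465). The study's selection by fold and unadjusted p took 3 of the 30, all higher, beside 2.33% of all tested genes selected as higher. These were Stc2, Pfkfb4 and the lactate transporter gene Slc16a3 at 0.62, the last of which is named after its value was seen. In contrast, Slc2a3, a glucose transporter, had a difference of -0.34 (limma adjusted p = 0.845), and Ndrg1 one of -0.31 (adjusted p = 0.866).

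**Figure D4:**
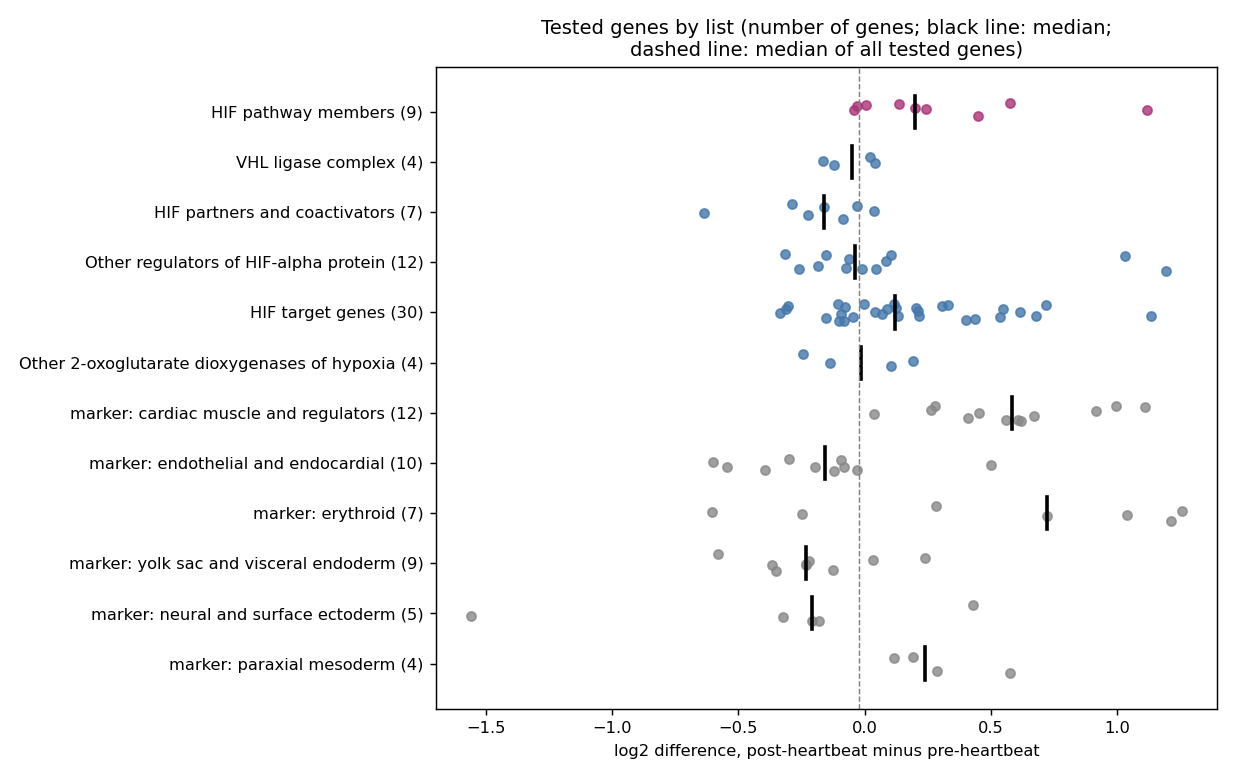
Log2 difference between the post-heartbeat and pre-heartbeat groups for the tested genes of each list, 1 point per gene, with the number of genes in parentheses, the median as a black line and the median of all tested genes as a dashed line. The HIF target genes run from -0.34 (Slc2a3) to 1.14 (Stc2) around a median of 0.12, and the 12 cardiac markers have a median of 0.58.

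Markers of cell types that the tissue can hold were followed in the same way, and of them only Otx2 passed the limma threshold. The averages of all 12 cardiac muscle genes and regulators were higher after heartbeat initiation (median 0.58), although 0 passed the limma threshold. Their summed linear level was 363 to 616 times the 75th percentile on the pre-heartbeat and 663 to 807 on the post-heartbeat arrays. The brightest were Actc1 at 0.41, Myl7 at 0.61 and Tnnt2 at 0.28. Of 7 tested erythroid markers, 5 were higher on average, with summed levels of 2.29 to 4.40 before and 3.69 to 6.23 after heartbeat initiation, which overlapped, and the brightest were Hba-a2 at 0.28, Hbb at 1.22 and Hbe2 at 1.04. Of 9 tested yolk sac and visceral endoderm markers, 2 were higher, with summed levels of 51.4 to 54.5 before and 32.7 to 43.6 after, and with Ttr at -0.58, Afp at 0.24 and Rbp4 at -0.23. Ttr weighs most in these summed levels, with a mean log2 signal of 5.28 before and 4.70 after heartbeat initiation. Of 5 tested neural and surface ectoderm markers, 1 was higher on average, and Otx2, a gene of the anterior neural plate, fell by 1.56 (limma adjusted p = 0.0199), the only gene of all lists that passed. Krt18 was at -0.32 and Krt8 at -0.18. The summed levels of this list overlapped between groups (82.6 to 119 before and 71.9 to 91.1 after). They did not overlap between slides (71.9 to 82.6 on slide 1 and 91.1 to 119 on slide 2). Krt18 weighs most in these summed levels, with a mean log2 signal of 6.45 before and 6.13 after heartbeat initiation. The summed levels of this list thus mostly follow Krt18 and are not read as an amount of ectoderm. The log2 signals of Otx2 overlapped between slides and not between groups (2.57 to 2.73 before and 0.957 to 1.19 after). The 4 tested paraxial mesoderm markers were all higher on average, with summed levels of 21.7 to 24.1 before and 25.1 to 26.6 after, and with Tcf15 at 0.19, Pax3 at 0.12 and Foxc2 at 0.29. The part of these cell types in the differences of Egln3, Egln1 and Hif3a was not tested.

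The promoters of the members were searched for the core of the HIF binding motif, ACGTG or GCGTG on either strand, in the RefSeq windows of the GRCr8 assembly that run from 250 bases before to 50 bases after each start. All 10 members had a window, and Hif3a had 2. A match was found for 5 of the 10 members, Egln1, Hif1a, Hif3a, Arnt and Cited2. Counted by window, 5 of the 11 member windows held a match, near the share of 41.6% of all 33469 windows. Egln1 and Hif1a had 2 and 3 matches, with an overlapping pair in Hif1a counted as 2. The windows of Egln2, Egln3, Hif1an, Vhl and Epas1 held none of these letters. For Egln1, the member with the largest difference, the match upstream of the start lies within chr19:69804720-69804749 on the minus strand, and for Hif1a the nearest match to its start lies within chr6:98359722-98359751 on the plus strand. They are shown with the motif in capitals.
Egln1: gcccggcccgccGCGTGcgcgcggcccccg
Hif1a: tggctgagagcaACGTGggctggggtgggg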

How the data were processed

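Global gene expression was measured in 6 heart primordium samples, 3 per group, as assigned by the labels, from 10 ng of total RNA each on 1-color Agilent rat arrays. The authors deposited the processed signal of each spot, an intensity from which Feature Extraction 10.7.3.1 had subtracted the background, and a table in which GeneSpring gave the ratio of each probe to a baseline. The deposited ratio differed between arrays as the intensity did, within 0.01 on the log2 scale in 100% of 30367 probes once a constant was removed for each pair of arrays, so it serves as an alternative. Here, log2 signals less the array's 75th percentile (1145.76 to 1701.98 intensity units) were averaged over spots, without spots marked as outliers. Each array had 58717 spots, of which 39375 to 41327 were well above background and 0 saturated. Probes well above background (at least 0.5 of their spots) on all arrays of at least 1 group were tested (63.5%), and 2 without complete values were left out. The number of arrays limits the precision.

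Groups were compared with limma 3.58.1 in R 4.3.3, with p adjusted by Benjamini-Hochberg over all tested probes. Single values and isoform pairs were compared by two-sided exact permutation over the 6 arrays. A gene of a list was represented by its brightest tested probe. Genes named are all members, all of the ligase, the 2 largest rises and falls of the other pathway lists (or those past the threshold), the 3 brightest of each marker list, and the 5 genes most like the member with the largest difference. Of the 10 members, 9 were matched to RefSeq by transcript accession. For Egln1 the array gives an Ensembl transcript, and its name rests on the array's own gene name. The selection of the study's methods (1.5 fold with p under 0.05 in the Tukey HSD test, here the methods' t-test), the slide or the replicate number as a block, quantile normalization, normexp with an offset of 50, another percentile, other filters, an intensity trend, the ratios and leaving out each array were alternatives. The fit was tested on simulated data. Members and lists were chosen with earlier results of these data known.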

Additional observations from a re-analysis of the deposited data

How the results depend on the processing

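The 3 arrays per group and the 2 slides limit all values, and the dim probes of Epas1, Hif3a and Arnt limit theirs further. Of the members, 0 passed an adjusted p of 0.05 under any alternative run. Egln1, Egln2, Egln3 and Hif1an kept their direction under all alternatives run. Hif3a kept its direction where it was tested, at only 0.0062 with normexp, and the filter on all arrays left it out. The filters, the intensity trend, the replicate block and the methods' t-test leave the estimate of a difference unchanged. They therefore cannot turn its direction. Of all tested probes, 23 were higher and 4 lower, and these counts became 11 higher with quantile normalization, 10 higher with the ratios of the authors, 43 and 7 with normexp, 38 and 7 with an intensity trend, 1 and 0 with no filter on dim probes, 223 and 89 with the slide block, and 0 to 1 each when 1 array was left out. By the methods' t-test they were 365 and 222 with the fold threshold, and 0 and 0 after Benjamini-Hochberg adjustment, where 1319 probes had an unadjusted p under 0.05. Pathway list genes that were higher went from 0 to 4 with the slide block (P4htm, Stc2, Pfkfb4 and Siah2, the last largely against background signals) and to 4 by the methods' selection, and marker genes from 0 to 4 and 5. The 1 lower marker gene, Otx2, was lost with any 1 array left out, with no filter and after Benjamini-Hochberg adjustment of the methods' t-test (0 each), and the methods' selection took 2.

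The replicate numbers correlated between groups at 0.65, -0.28 and 0.49, and not every array correlated best with its own number, so the numbers were not taken to pair the arrays. Arrays numbered 1 and 3 share a slide between groups, and those numbered 2 do not. As a replicate block they gave 95 probes higher and 49 lower, 1 pathway gene and 1 marker gene higher, and 0 members.

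The sign of Vhl turned with quantile normalization (-0.0053), the percentile over probes detected on all arrays (-0.010), normexp (-0.0056), the ratios (-0.013) and 4 arrays left out in turn (range -0.044 to 0.063). That of Epas1 turned with quantile normalization (0.015), the slide block (0.028) and 2 arrays left out (range -0.21 to 0.21), that of Cited2 without pre-heartbeat replicate 3 (0.030, range -0.11 to 0.030) and that of Hif1a without pre-heartbeat replicate 1 (range -0.18 to 0.53). The shift of Hif1a minus Hif3a turned with normexp (0.084) and with the slide block (0.16), and with 1 array left out it ran from -0.45 to 0.32. Those of Egln2 minus Egln3 and Hif1a minus Epas1 ran from -0.39 to 0.11 and from -0.15 to 0.75. The cause was not tested. For lists, the mean of all tested probes of a gene was used for the medians only.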
